A study of Mus musculus with 2 samples.

Results

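The 10 genes of sodium reabsorption in the distal nephron and of its control followed here were compared across the cell classes of the injured mouse kidney: Slc12a1, Slc12a3, Scnn1a, Scnn1b, Scnn1g, Nr3c2, Hsd11b2, Sgk1, Wnk1 and Wnk4. They were taken by symbol, and all 10 were found among the 31058 features of the deposited tables, each in 1 row. Whole kidneys of female C57Bl/6 mice aged 9 weeks, of genotype Pax8.rtTA;TetO.Cre;R26.FUCCI2aR, were dissociated after rhabdomyolysis (muscle breakdown that injures the kidney) under vehicle or under CA3, a compound that inhibits the transcriptional coactivator YAP1. The study asked which pathways take part in the response to acute kidney injury and its progression. The transgenes, shared by both groups, put Cre under doxycycline control in Pax8-expressing tubule cells and carry a cell cycle reporter. How long after injury kidneys were taken, how much CA3 was given and whether a library pooled animals is not stated in the sources at hand. No uninjured group was analysed here.

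Each group was 1 library, so no difference between them has a replicate check, no p-value is given, and treatment cannot be told apart from animal, dissociation or library. The vehicle library held 1967 cell barcodes and 19592239 unique molecular identifiers (UMIs, counts of single captured RNA molecules), and the CA3 library 1724 barcodes and 17013222 UMIs. After the removal of cells above 80% mitochondrially encoded UMIs or under 200 genes, 1907 vehicle and 1634 CA3 cells were left. The level of a gene in a class is given in CPM, its UMIs summed over the cells of the class per 1000000 UMIs after mitochondrially encoded genes are taken out, with an exact Poisson 95% interval. Ratios are CA3 over vehicle, with an exact conditional binomial 95% interval. These intervals cover counting error only, and cells of a class varied by more than that.

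In the distal nephron sodium enters the cell through a different protein in each segment. The cotransporter NKCC2 (Slc12a1), the target of furosemide, works in the thick ascending limb (TAL), and NCC (Slc12a3), the target of thiazides, in the distal convoluted tubule (DCT). In the connecting tubule (CNT) and in principal cells (PC) of the collecting duct sodium enters through the channel ENaC, built from the subunits encoded by Scnn1a, Scnn1b and Scnn1g. Aldosterone binds the mineralocorticoid receptor (Nr3c2), and the enzyme HSD11B2 protects this receptor by inactivating glucocorticoids. SGK1 is a kinase induced by aldosterone that keeps ENaC at the membrane, and WNK1 and WNK4 are kinases that set the phosphorylation of both cotransporters.

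Among the promoters matched, the only complete palindrome of the steroid receptor half-site was at Sgk1, so its sequence is shown with those of Scnn1b and Scnn1g, neighbours on chromosome 7 that shared their highest class. RefSeq promoter sequences (GRCm38.p6) were matched for 8 of the 10 genes. Each line gives the 250 bases before a transcription start on the plus strand, 5′ to 3′, at chr10:21993640-21993889 for the fifth of 6 Sgk1 starts, chr7:121864788-121865037 for Scnn1b and chr7:121734229-121734478 for Scnn1g. Capitals mark the half-site AGAACA on either strand.
Sgk1: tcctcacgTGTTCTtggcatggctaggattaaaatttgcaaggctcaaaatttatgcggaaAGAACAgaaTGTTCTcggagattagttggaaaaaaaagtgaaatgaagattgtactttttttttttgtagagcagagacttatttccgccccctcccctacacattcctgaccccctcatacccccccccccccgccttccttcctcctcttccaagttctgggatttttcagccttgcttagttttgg
Scnn1b: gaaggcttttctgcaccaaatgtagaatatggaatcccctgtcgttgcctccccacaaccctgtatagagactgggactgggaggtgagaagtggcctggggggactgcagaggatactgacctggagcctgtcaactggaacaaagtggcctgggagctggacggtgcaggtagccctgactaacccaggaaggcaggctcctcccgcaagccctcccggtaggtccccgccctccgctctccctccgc
Scnn1g: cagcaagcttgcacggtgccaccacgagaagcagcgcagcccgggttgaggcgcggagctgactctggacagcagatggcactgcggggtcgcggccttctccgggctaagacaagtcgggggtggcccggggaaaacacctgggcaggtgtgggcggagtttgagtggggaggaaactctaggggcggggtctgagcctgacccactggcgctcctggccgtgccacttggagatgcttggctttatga
The Sgk1 window held the palindrome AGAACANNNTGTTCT as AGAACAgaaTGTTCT, starting 189 bases before the start site, and a further half-site 242 bases before it. Of 32851 RefSeq promoters read over the same length, 3 held this palindrome (0.00913%) and 5284 held the half-site on either strand (16.1%), the half-sites of the palindrome included. The windows of Scnn1b and Scnn1g held neither, and their GC content was 60.8% and 65.2% against a median of 52.4% over all promoters. Also searched were TATAAA, in 12.4% of all promoters and at 1 start of Slc12a3 and 2 of Sgk1, and CACGTG, in 6.02% and at the Sgk1 start shown. Such matches are descriptions of letters and not of binding.

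Scnn1g and Scnn1b lie 96562 bases apart on the same strand with no protein-coding gene between them, at 121734479 to 121768475 and 121865038 to 121918514 of chromosome 7 (mm10, GENCODE vM21). Slc12a1 lies on chromosome 2 from 125152505 to 125230002, Slc12a3 on chromosome 8 from 94329201 to 94366214 and Scnn1a on chromosome 6 from 125320659 to 125344943. Nr3c2 spans 76899442 to 77245012 and Hsd11b2 105518755 to 105523988, both on chromosome 8. Sgk1 spans 21882184 to 21999903 of chromosome 10, Wnk1 119923969 to 120038672 of chromosome 6 on the minus strand, and Wnk4 101260567 to 101277409 of chromosome 11. Over the last 400 bases of their coding transcripts, where 3′ libraries are read, none of the 10 genes shared a 31-base word with a gene outside the 10. Words shared among the 10 genes were not searched for. The 3′ end of Scnn1b overlaps Cog7 on the other strand. Counts of UMIs at the 3′ end do not separate full-length WNK1 from the short kidney form that lacks the kinase domain, so Wnk1 below is the sum of both.

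Cells were classed by clustering without the 10 genes and by markers that are none of them, such as Umod for TAL, Pvalb for DCT, Calb1 for CNT and Aqp2 for PC. There were 63 vehicle and 45 CA3 cells of the TAL-like class, 12 and 16 DCT-like, 56 and 58 DCT/CNT-like, 23 and 17 CNT/PC-like, and 17 and 29 intercalated-cell-like (IC-like) cells. Joint names mark clusters in which a second marker list also passed a score threshold. This naming threshold was set after the marker scores and the levels of the 10 genes had been seen. A single name does not mean that markers of other segments were absent. DCT-like cells had summed CNT markers of 17620 and 19279 CPM and TAL markers of 10421 and 8910, beside DCT markers of 4188 and 4358. A cluster of 37 vehicle and 17 CA3 cells with markers of several distal segments was led by proximal tubule genes and stayed unnamed. Chemokine and antigen presentation genes (Ccl4, Cd74, Ccl5) were among the leading genes of 1 of the 2 TAL-like clusters, and the summed T or NK markers of the class were 5.12 CPM in the vehicle and 162 CPM in the CA3 library. In a finer clustering, which left 62 vehicle and 43 CA3 TAL-like cells, the CA3 sum was 12.1 CPM and the ratio of Slc12a1 was 0.836. The DCT-like class was shallow, with median depths of 3289 and 3095 UMIs per cell. In the DCT/CNT-like class the median mitochondrial share was 38.6% in the vehicle and 50.5% in the CA3 library. Scrublet marked no doublet in either library, and 1 barcode occurred in both.

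In both libraries Slc12a1 was highest in TAL-like and Slc12a3 in DCT/CNT-like cells (the plot of levels by class). Slc12a1 stood at 10466 CPM in vehicle TAL-like cells (6132 UMIs, interval 10205 to 10731) and at 8755 in CA3 TAL-like cells (3134 UMIs, interval 8451 to 9067). Thinned to 1000 UMIs, 61 of 63 vehicle and 43 of 45 CA3 TAL-like cells had an Slc12a1 UMI, where T or NK-like cells had one in 0 of 51 and 2 of 96. Those background cells had median depths of 4748 and 5700 UMIs, against 7004 and 5854 in TAL-like cells. At a limit of 3 cells, which is not an exact interval, 0 of 51 allows a share of up to 5.88%. Without thinning the shares were 100% and 97.8% of TAL-like cells. Cells differed among themselves: the mean over vehicle TAL-like cells was 9508 CPM with an SD of 4680 (63 cells), and over CA3 cells 8968 with an SD of 4246 (45 cells).

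In the DCT-like, DCT/CNT-like and CNT/PC-like classes of the vehicle library few cells held most Slc12a1 UMIs. In the 2 clusters that made up the DCT/CNT-like class, the 3 highest vehicle cells held 83 of 85 and 41 of 42 UMIs. Of the CNT/PC-like class 311 of 325 UMIs were in 3 cells, and in the DCT-like class 28 of 29 UMIs were in 1 cell. The endothelial-like cluster, with summed thin limb markers of 2315 and 2355 CPM, had Slc12a1 at 668 and 1059 CPM, and 10 of its 103 cells held 1023 of 1115 UMIs. The unnamed distal cluster stood at 2746 and 858 CPM. There 25 of 37 vehicle cells had a UMI and the 3 highest held 309 of 915 UMIs, while 3 of 17 CA3 cells held all 187.

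**Figure D1:**
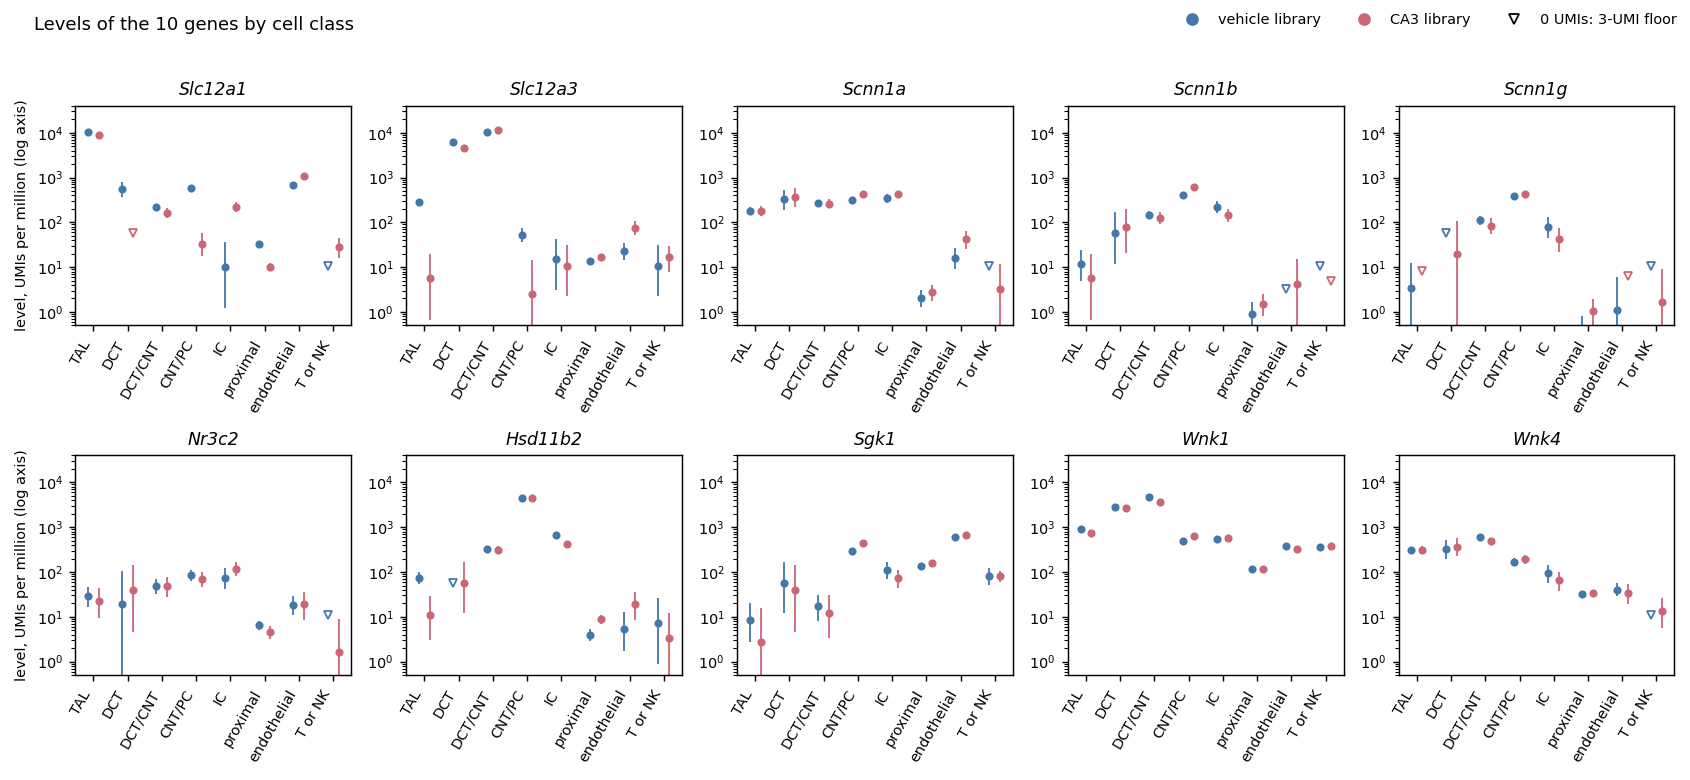
Levels of the 10 genes (CPM, log axis) in 8 cell classes, vehicle library in blue and CA3 library in red, with 95% Poisson intervals as bars; an open triangle is a class with 0 UMIs, drawn at the level of 3 UMIs. Slc12a1 peaks in TAL, Slc12a3 and Wnk1 in DCT/CNT, Scnn1b, Scnn1g and Hsd11b2 in CNT/PC, and Sgk1 in endothelial-like cells, in both libraries. The endothelial-like class also held thin limb and TAL markers.

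Slc12a3 was highest in DCT/CNT-like cells, at 10321 CPM in the vehicle library (6026 UMIs, interval 10062 to 10585) and 11682 in the CA3 library (3863 UMIs, interval 11316 to 12056). DCT-like cells followed at 6253 and 4630, with intervals apart from those of the class above. Thinned to 1000 UMIs, 40 of 56 vehicle and 42 of 58 CA3 DCT/CNT-like cells had a UMI, and 0 and 1 of the T or NK-like cells. When only cells of up to 50% mitochondrial UMIs were clustered, the order turned and DCT-like cells were highest, at 13969 and 16625 CPM. They were also highest when at least 500 genes per cell were required, at 12863 and 11184 CPM, an alternative chosen for these levels after the data were seen. The spread over cells was wide, with a mean of 8861 and an SD of 7678 CPM in 56 vehicle cells. Slc12a3 reached 285 CPM in vehicle TAL-like cells, where 163 of 167 UMIs were in 3 cells, and CNT/PC-like cells had 52.7 and 2.58 CPM (30 UMIs and 1 UMI).

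The ENaC subunits were not distributed alike. Scnn1a was spread over the whole distal nephron, from 183 and 182 CPM in TAL-like cells (107 and 65 UMIs) to 315 and 436 in CNT/PC-like cells (179 and 169 UMIs). IC-like cells were as high, at 342 and 426, and in the vehicle library the intervals of IC-like, DCT-like, CNT/PC-like and DCT/CNT-like cells overlapped from each class to the next. Scnn1b and Scnn1g were near absent from TAL-like cells, with 7 and 2 UMIs of Scnn1b and 2 and 0 UMIs of Scnn1g. They peaked in CNT/PC-like cells, Scnn1b at 410 and 601 (233 UMIs in each library) and Scnn1g at 388 and 433 (221 and 168 UMIs). For both subunits the CNT/PC-like interval lay above those of all other classes in each library, while DCT/CNT-like and IC-like cells overlapped. T or NK-like cells had no Scnn1b UMI in either library.

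Finer clustering (resolution 2 in place of 1) drew this gradient out. It gave 31 vehicle and 32 CA3 DCT-like cells, 35 and 31 DCT/CNT-like, 10 and 11 CNT/PC-like and 13 and 6 PC-like cells. Scnn1b stood at 36.8 and 24.3 CPM in these DCT-like cells, at 255 and 259 in DCT/CNT-like, at 510 and 672 in CNT/PC-like and at 379 and 489 in PC-like cells. Scnn1g took the same course, from 0 UMIs in the vehicle and 9.72 CPM in the CA3 DCT-like cells to 212 and 171, then 517 and 435, then 350 and 429. Scnn1a moved little along the same 4 classes, between 228 and 456 CPM over both libraries. Slc12a3 ran the other way, from 12405 and 12123 in DCT-like cells through 7501 and 9868 in DCT/CNT-like cells to 183 CPM and 0 UMIs in CNT/PC-like cells.

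**Figure D2:**
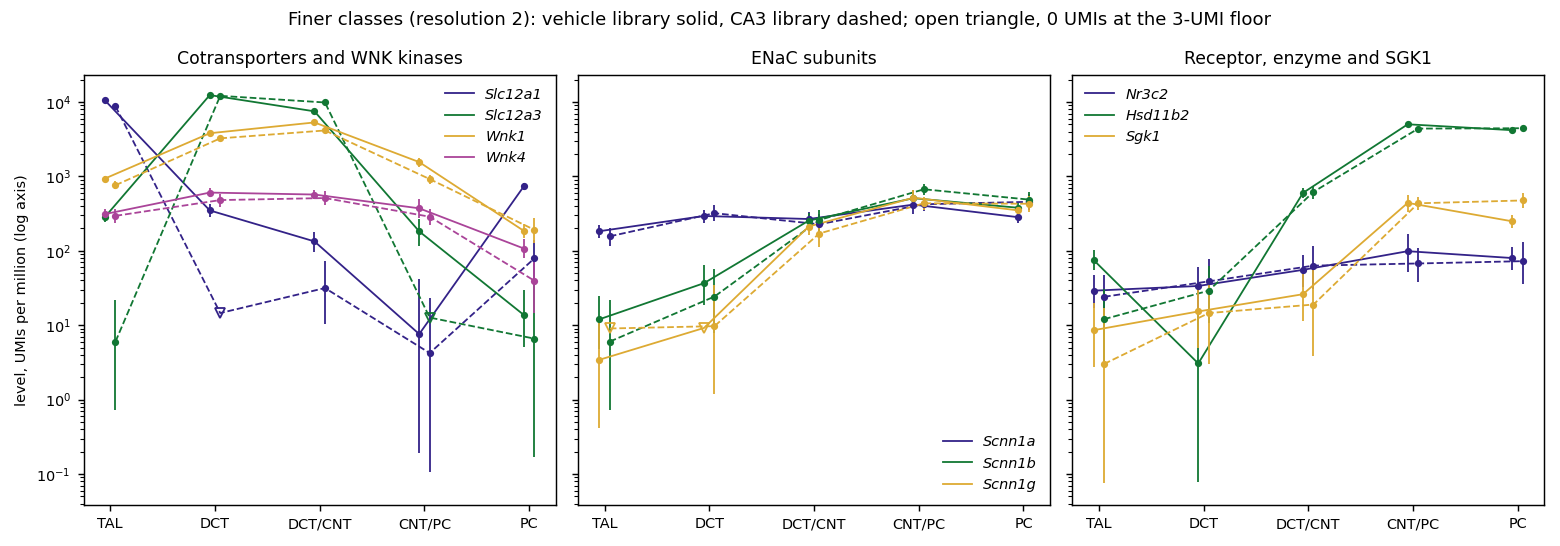
Levels (CPM, log axis) along 5 finer classes from TAL to PC, with 95% Poisson intervals as bars; the vehicle library is solid and the CA3 library dashed, and an open triangle is 0 UMIs at the level of 3 UMIs. Slc12a3 falls and Scnn1b, Scnn1g, Hsd11b2 and Sgk1 climb between DCT and CNT/PC, while Scnn1a stays between 157 and 456; the Slc12a1 level of vehicle PC-like cells comes from 324 UMIs, of which 3 cells held 311.

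The subunits were also counted in single cells. No DCT-like cell of the finer clustering had UMIs of all 3 subunits, in 31 vehicle and 32 CA3 cells. In DCT/CNT-like cells all 3 were found in 12 of 35 vehicle and 6 of 31 CA3 cells, and in CNT/PC-like cells in 8 of 10 and 9 of 11. PC-like cells had all 3 in 12 of 13 and 5 of 6 cells. Depth moved with these counts, at a median of 13517 and 21889 UMIs per cell in CNT/PC-like and 7873 and 3758 in DCT-like cells. Thinned to 1000 UMIs, cells with Scnn1b were 1 of 31 vehicle and 2 of 32 CA3 DCT-like cells, 6 of 35 and 9 of 31 DCT/CNT-like, 2 of 10 and 3 of 11 CNT/PC-like and 4 of 13 and 1 of 6 PC-like cells. At this depth the intervals of DCT-like cells (0.0816 to 16.7% and 0.766 to 20.8%) overlapped those of the other 3 classes, so a step was not detectable. Slc12a3 and Scnn1b or Scnn1g were found together in 15 of 35 vehicle and 12 of 31 CA3 cells of the finer DCT/CNT-like class, the class between the segments.

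**Figure D3:**
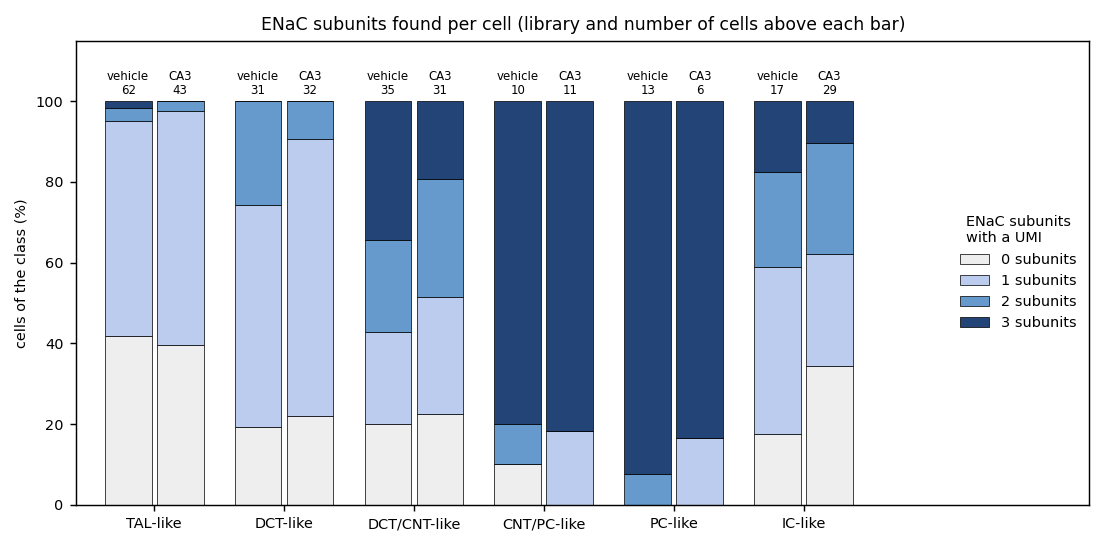
Share of cells (%) in which 0, 1, 2 or 3 of the ENaC subunits Scnn1a, Scnn1b and Scnn1g had a UMI, by finer class and library, cells not thinned; the number of cells is above each bar. Cells with all 3 subunits are 0 of 31 and 0 of 32 in DCT-like and 12 of 13 and 5 of 6 in PC-like cells.

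The receptor gene Nr3c2 was low in every distal class, and lower in TAL-like than in CNT/PC-like cells. It stood at 84.4 CPM in vehicle and 69.6 in CA3 CNT/PC-like cells (48 and 27 UMIs), at 48.0 and 48.4 in DCT/CNT-like and at 29.0 and 22.4 in TAL-like cells. IC-like cells had 74.4 and 119 CPM. In each library the intervals of classes next to each other in level overlapped. The interval of TAL-like cells (16.9 to 46.5 in the vehicle and 9.65 to 44.0 in the CA3 library) lay below that of CNT/PC-like cells (62.2 to 112 and 45.9 to 101) in both, and below that of IC-like cells (81.9 to 167) in the CA3 library. It was above T or NK-like cells, which had 0 UMIs in the vehicle and 1 UMI in the CA3 library.

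Hsd11b2, the gene of the enzyme that guards the receptor, was far more restricted. It reached 4379 CPM in vehicle CNT/PC-like cells (2491 UMIs, interval 4208 to 4554) and 4416 in CA3 cells (1713 UMIs, interval 4210 to 4631). Thinned to 1000 UMIs, 22 of 23 and 15 of 17 of these cells had a UMI, and none of the T or NK-like cells. At a limit of 3 cells, which is not an exact interval, this allows a share of T or NK-like cells of up to 5.88% and 3.13%. Without thinning every CNT/PC-like cell had one. DCT/CNT-like cells had 319 and 308 CPM, and 101 of 186 vehicle and 54 of 102 CA3 UMIs were in the 3 highest cells of each library. IC-like cells had 655 and 415, of which 3 cells held 130 of 132 UMIs in the vehicle and 108 of 115 in the CA3 library. In the finer clustering DCT-like cells had 3.06 and 29.2 CPM (1 and 6 UMIs), the first below the level of 3 UMIs (9.19 CPM). DCT/CNT-like cells had 601 and 620, CNT/PC-like 5023 and 4397 and PC-like cells 4185 and 4446. Of the finer DCT/CNT-like cells, 15 of 35 vehicle and 13 of 31 CA3 cells had a UMI. The 3 highest of each library held 101 of 184 and 54 of 98 UMIs.

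Receptor and enzyme were then counted together in single cells. In vehicle TAL-like cells 11 of 63 had an Nr3c2 but no Hsd11b2 UMI and 1 had both, and in the CA3 library 7 of 45 had the receptor alone and none had both. In DCT/CNT-like cells 11 of 56 vehicle and 4 of 58 CA3 cells had both, and 10 and 9 had Nr3c2 alone. In CNT/PC-like cells 20 of 23 vehicle and 12 of 17 CA3 cells had both. Nr3c2 alone could not occur there, since every cell of the class had an Hsd11b2 UMI. Median depths were 16436 and 21889 UMIs per cell in CNT/PC-like cells, against 7004 and 5854 in TAL-like cells. Cells were not thinned for this count, and a cell without a UMI may still hold the RNA.

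Sgk1 was not restricted to the distal nephron. It was highest in endothelial-like cells, at 606 and 670 CPM (554 and 319 UMIs), followed by CNT/PC-like cells at 294 and 451 (167 and 175 UMIs), with intervals apart in both libraries. The endothelial-like class was mixed, with summed endothelial markers of 4791 and 5203 CPM, thin limb markers of 2315 and 2355 and TAL markers of 3140 and 5079. Which of its cell types held the Sgk1 UMIs was not tested. Mononuclear phagocyte-like cells had 175 and 210 and proximal tubule-like cells 140 and 156 CPM. TAL-like cells had 5 and 1 UMIs and DCT/CNT-like cells 10 and 4, or 17.1 and 12.1 CPM, below the 82.6 and 80.8 of T or NK-like cells. Thinned to 1000 UMIs, 14 of 23 vehicle and 9 of 17 CA3 CNT/PC-like cells had a UMI (78.3% and 82.4% without thinning), where T or NK-like cells had one in 5.88% and 4.17%. In the finer clustering Sgk1 stood at 26.1 and 19.0 CPM in DCT/CNT-like, 441 and 435 in CNT/PC-like and 249 and 476 in PC-like cells.

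Both WNK kinases had their highest level in the DCT/CNT-like class, as Slc12a3 did. Wnk1 stood at 4667 CPM in vehicle DCT/CNT-like cells (2725 UMIs, interval 4494 to 4846) and 3665 in CA3 cells (1212 UMIs, interval 3462 to 3877). DCT-like cells followed at 2856 and 2626, TAL-like cells at 934 and 732 and CNT/PC-like cells at 503 and 637. Wnk1 was also general, at 355 and 386 CPM in T or NK-like and 114 and 119 in proximal tubule-like cells. After thinning 52 of 56 vehicle and 47 of 58 CA3 DCT/CNT-like cells had a UMI, with a background among T or NK-like cells of 14 of 51 and 30 of 96. In the finer clustering Wnk1 was highest in DCT/CNT-like cells (5320 and 4150 CPM), lower in CNT/PC-like (1560 and 922) and lowest in PC-like cells (185 and 192). Wnk4 took the same course at 610 and 499 in DCT/CNT-like, 328 and 370 in DCT-like, 311 and 316 in TAL-like and 169 and 191 in CNT/PC-like cells. The Wnk4 intervals of DCT-like and TAL-like cells overlapped in both libraries, those of DCT/CNT-like and DCT-like cells overlapped in the CA3 library, and T or NK-like cells had 0 UMIs in the vehicle and 8 in the CA3 library. The first place of DCT/CNT-like cells for Wnk4 changed with the processing: finer clustering gave 607 and 481 CPM in DCT-like against 572 and 512 in DCT/CNT-like cells, and clustering of cells up to 50% mitochondrial UMIs put DCT-like cells highest at 686 and 581.

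The genes whose levels ran most like those of the 10 were taken as the 3 highest Pearson correlations over 12 profiles, 6 classes with at least 20 cells in each of the 2 libraries, among 9862 genes. These points share their libraries and are given with no test. Slc12a1 ran closest to Erbb4 (0.973), Ptger3 and Ppp1r1b, and Slc12a3 closest to Pgam2 (0.981), Calb1 and Hsd11b2. Scnn1a had Sfrp1 (0.991) among its first 3, and Scnn1b ran with Tox3 (0.995) and Scnn1g with Trpv5 (0.992), a calcium channel of the CNT. Calb1 and Trpv5 were among the CNT markers that named classes. Nr3c2 ran with Dach1 (0.981), Hsd11b2 with Scg5 (0.978), Sgk1 with Frmd4b (0.977), Wnk1 with Camta1 (0.946) and Wnk4 with Mrps25 (0.978). The DCT-like, CNT/PC-like and IC-like classes had too few cells for this rule, so TAL-like and DCT/CNT-like were the only named distal classes in it. The likeness of Slc12a3 to Hsd11b2 does not cover the classes left out. CNT/PC-like cells had Slc12a3 at 52.7 and 2.58 CPM and Hsd11b2 at 4379 and 4416. DCT-like cells had Slc12a3 at 6253 and 4630 CPM and Hsd11b2 at 0 and 58.4. When classes with at least 10 cells were let in (9 classes, an alternative chosen after the data were seen), only 6 of the 30 pairs remained among the first 3, and Hsd11b2 then ran with Scnn1g (0.967).

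For the comparison of CA3 with vehicle, a gene counted as measured in a class with at least 20 UMIs over both libraries, and as past the limit at a ratio of 1.5 or more in either direction. In TAL-like cells 0 of 7 measured genes were higher and 2 lower, where 11.0% of 6372 genes were higher and 13.1% lower. In DCT-like cells 0 of 5 were higher and 1 lower, where 17.7% of 807 genes were higher and 10.4% lower. In DCT/CNT-like cells 0 of 9 were past the limit in either direction, where 11.1% of 6116 genes were higher and 11.8% lower. In CNT/PC-like cells 1 of 10 was higher and 2 were lower, where 9.01% of 6934 genes were higher and 17.3% lower. The median log2 ratio of the measured members was -0.35, -0.12, -0.23 and 0.17 in these 4 classes, and that of all genes -0.03, 0.15, -0.003 and -0.09. Of the 5 values past the limit downwards, all were of Slc12a1, Slc12a3 or Hsd11b2 in a class other than the one of their peak, and few cells carried them.

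**Figure D4:**
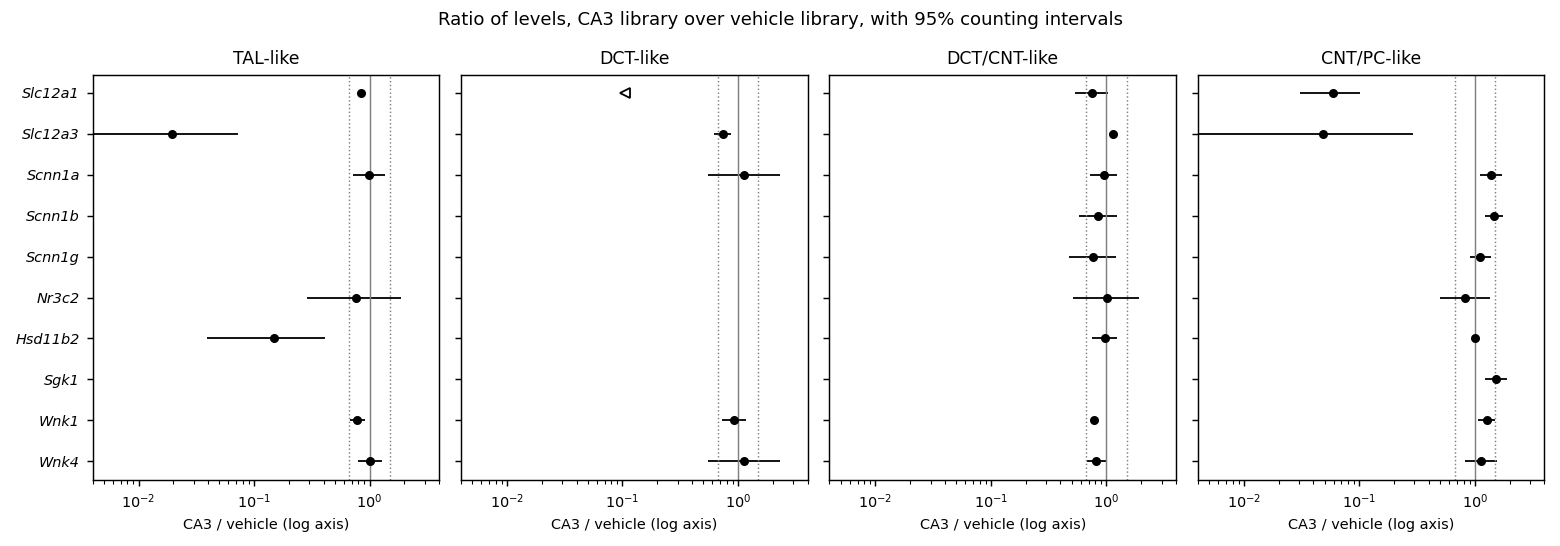
Ratio of levels, CA3 library over vehicle library (log axis), for members with at least 20 UMIs in each of the 4 distal classes, with 95% counting intervals as bars; dotted lines mark 1.5-fold either way, and the open triangle is a bound at 3 UMIs for Slc12a1 in DCT-like cells. The low ratios belong to Slc12a1, Slc12a3 and Hsd11b2 outside their main class, and Sgk1 in CNT/PC-like cells is the 1 ratio above the upper line.

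In its own segment neither cotransporter was past the limit. Slc12a1 in TAL-like cells had a ratio of 0.837 (interval 0.801 to 0.873), and 0.943 as a mean over cells. Slc12a3 in DCT/CNT-like cells had a ratio of 1.13 (1.09 to 1.18) and in DCT-like cells 0.740 (0.624 to 0.878). In the DCT-like class 3 of 12 vehicle cells held 226 of 324 UMIs, and without the 3 highest cells of each library the ratio there was 1.12. In the finer clustering Slc12a3 was at 0.977 (0.929 to 1.03) in DCT-like and 1.32 (1.23 to 1.40) in DCT/CNT-like cells.

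The low ratios came mostly from 1 to 3 vehicle cells. Slc12a3 in TAL-like cells was at 0.0196 of vehicle (167 against 2 UMIs), and 163 of the vehicle UMIs were in 3 cells. Hsd11b2 in the same class was at 0.149 (44 against 4 UMIs), with 42 vehicle UMIs in 3 cells. Slc12a1 in CNT/PC-like cells was at 0.0587 (325 against 13 UMIs), with 311 vehicle UMIs in 3 cells, and Slc12a3 there at 0.0489 (30 against 1 UMI), with 26 vehicle UMIs in 3 cells. In DCT-like cells Slc12a1 had 29 vehicle UMIs and 0 CA3 UMIs, at least 9.59-fold lower against a floor of 3 UMIs, and 28 of the 29 were in 1 cell. Slc12a1 in DCT/CNT-like cells was at 0.751 (127 against 54 UMIs), but at 2.56 as a mean over cells.

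Taken over the whole DCT/CNT-like class, no measured gene of ENaC or the aldosterone pathway was past the limit. Sgk1 was not measured there (10 against 4 UMIs). Scnn1a had a ratio of 0.954 (0.726 to 1.25), Scnn1b 0.852 (0.575 to 1.25), Scnn1g 0.761 (0.470 to 1.20), Nr3c2 1.01 (0.510 to 1.93) and Hsd11b2 0.968 (0.753 to 1.24), and each interval includes 1. This class joined a deeper cluster of 31 vehicle and 23 CA3 cells with one of 25 and 35 cells whose median mitochondrial share was 57.2% and 68.4%. An alternative added after the data were seen left out the second cluster. The ratio was then 0.388 for Hsd11b2, 0.643 for Scnn1b and 0.639 for Scnn1g, all past the limit. The counts were 67 against 21 UMIs of Scnn1b and 45 against 14 of Scnn1g, and for both the level intervals of the libraries overlapped. Of Hsd11b2, 101 of 143 vehicle and 25 of 27 CA3 UMIs were in the 3 highest cells of each library. Slc12a1 had 85 vehicle UMIs, 83 of them in 3 cells, and 0 CA3 UMIs. Hsd11b2 stood at 289 CPM in the vehicle (interval 244 to 341) and 112 CPM in the CA3 library (73.9 to 163) in the deeper cluster. In the other cluster it stood at 479 (347 to 646) and 834 CPM (656 to 1045), so the 2 clusters differed in opposite directions. The 3 highest cells of each library held 31 of 43 vehicle and 45 of 75 CA3 UMIs in that other cluster.

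In CNT/PC-like cells the 3 subunits had ratios above 1. Scnn1b was at 1.47 (1.22 to 1.77), Scnn1a at 1.38 (1.12 to 1.72) and Scnn1g at 1.11 (0.907 to 1.37). Sgk1 was at 1.54 (1.24 to 1.91), the only member past the limit upwards, while Hsd11b2 was at 1.01 (0.948 to 1.07) and Nr3c2 at 0.825 (0.495 to 1.35). The make-up of this class differed between the libraries: summed CNT markers were 17854 CPM in the vehicle and 58307 in the CA3 library, and summed PC markers 11081 and 5834. Split by the finer clustering, Sgk1 was at 0.987 (0.708 to 1.39) in CNT/PC-like cells and at 1.91 (1.40 to 2.60) in PC-like cells, of which the CA3 library had 6. Scnn1a was at 1.01 (0.720 to 1.43) and 1.61 (1.18 to 2.18), and Scnn1b at 1.32 (0.985 to 1.78) and 1.29 (0.966 to 1.70). In these PC-like cells summed endothelial markers were 119 CPM in the vehicle and 1017 in the CA3 library, and summed IC markers 73.1 and 1017. The 3 highest PC-like cells of each library held 66 of 109 vehicle and 59 of 72 CA3 UMIs of Sgk1. As means over cells the joint class had ratios of 1.23 for Sgk1, 1.49 for Scnn1a, 1.11 for Scnn1b and 0.918 for Scnn1g, and after thinning to 1000 UMIs Sgk1 was at 0.796. The part of the make-up in the ratios of the joint class and of PC-like cells was not tested.

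Wnk1 was lower in the CA3 library in TAL-like cells, at 0.784 (0.674 to 0.910), and in DCT/CNT-like cells, at 0.785 (0.733 to 0.841). As a mean over cells the ratio was 0.726 in DCT/CNT-like cells, but 1.09 in TAL-like cells, where 3 of 63 vehicle cells held 260 of 547 UMIs. In CNT/PC-like cells Wnk1 was at 1.27 (1.06 to 1.51). It lay above both finer classes, where the ratio was 0.591 (0.486 to 0.719) in CNT/PC-like and 1.04 (0.653 to 1.60) in PC-like cells, and the mean over cells of the joint class gave 0.686. Wnk4 was at 1.02 (0.796 to 1.29) in TAL-like, 0.818 (0.676 to 0.987) in DCT/CNT-like and 1.13 (0.823 to 1.55) in CNT/PC-like cells. Its finer classes were both below 1, at 0.771 (0.526 to 1.14) in CNT/PC-like cells and past the limit at 0.369 (0.129 to 0.865, 47 against 6 UMIs) in PC-like cells.

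Other genes of the same pathways showed no common shift. Of all genes 11.0% were higher and 13.1% lower in TAL-like cells, and 17.7% and 10.4% in DCT-like cells. In DCT/CNT-like cells these shares were 11.1% and 11.8%, and in CNT/PC-like cells 9.01% and 17.3%. Of 8 genes that work with the WNK kinases, 6 were measured in TAL-like and 6 in DCT/CNT-like cells, and none was past the limit in either. In DCT-like cells 1 of 3 measured was lower, and in CNT/PC-like cells 1 of 6 was higher, in both cases Klhl3, an adaptor for WNK degradation. Its level was lower in DCT-like cells (791 and 331 CPM, ratio 0.418, 0.223 to 0.752) and higher in CNT/PC-like cells (56.2 and 111, ratio 1.97, 1.22 to 3.22). Stk39, the kinase SPAK that WNKs activate, had a ratio of 0.684 (0.477 to 0.970) in CNT/PC-like cells. Of 11 ENaC regulators and aldosterone-responsive genes, 6 were measured in TAL-like cells, with Prss8 higher (1.52, 0.856 to 2.69) and Nr3c1 lower (0.655, 0.399 to 1.05). In DCT/CNT-like cells 9 were measured, with Per1 (1.77, 0.66 to 4.73) and Fkbp5 (1.51, 0.760 to 2.98) higher and Nedd4l lower. Of 8 measured in CNT/PC-like cells, Usp2 was higher (1.54, 0.975 to 2.44) and 3 were lower. Each of these intervals includes 1. The 3 lower in CNT/PC-like cells were Per1 (ratio 0.440, 0.145 to 1.14), the glucocorticoid receptor gene Nr3c1 (0.520, 0.236 to 1.06) and the channel-activating protease gene Prss8 (0.649, 0.397 to 1.04), and each interval includes 1. Nedd4l, the ligase that removes ENaC from the membrane, was at 0.577 (0.313 to 1.01) in DCT/CNT-like cells.

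Of 9 further genes of ion transport in these segments, 9 were measured in TAL-like cells with 2 lower, 9 in DCT/CNT-like cells with none past the limit, and 8 in CNT/PC-like cells with 3 higher. Of all genes 13.1% were lower in TAL-like and 9.01% higher in CNT/PC-like cells, and in DCT/CNT-like cells 11.1% were higher and 11.8% lower. The potassium channel gene Kcnj10 was among those lower in TAL-like cells (ratio 0.518, 0.292 to 0.881). Bsnd, which encodes barttin, was among those higher in CNT/PC-like cells (42.2 and 103 CPM, ratio 2.44, 1.44 to 4.24). Summed IC markers of that class were 59.8 CPM in the vehicle and 449 in the CA3 library, and IC-like cells had Bsnd at 253 and 231 CPM. The part of this make-up in the Bsnd ratio was not tested. Of 7 in DCT-like cells, Kcnj10 was higher (1.78, 0.866 to 3.83) and the potassium channel gene Kcnj16 lower (0.630, 0.307 to 1.25). Both intervals include 1, and in this class 17.7% of all genes were higher and 10.4% lower.

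Genes of stress and dissociation, measured as a check, differed between the libraries by class. In TAL-like cells 7 of 10 were lower in the CA3 library, where 13.1% of all genes were, Fosb at 0.247 (0.185 to 0.323) and Fos at 0.327 (0.274 to 0.389), and their summed level was 5084 CPM in the vehicle and 2425 in the CA3 library. Of 10 in CNT/PC-like cells, Fos, Egr1 and Atf3 were lower, where 17.3% of all genes were, and the sum was 10359 and 7572. Of 10 in DCT/CNT-like cells, Jun and Ier2 (1.59, 0.993 to 2.55) were higher and Dusp1 lower, where 11.1% of all genes were higher and 11.8% lower. The summed level of these stress genes there was 2614 and 3326. Their part in the ratios of the 10 genes was not tested.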

How the data were processed

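Single cells of whole kidney were measured with 10x Genomics 3′ libraries, 1 library per group. The authors deposited UMI counts of each gene in each cell, from Cell Ranger 3.0.1 on mm10 per the submitters' processing notes; read filters and cell calling are not stated there. Cells with up to 80% mitochondrially encoded UMIs and at least 200 genes were kept (60 vehicle and 90 CA3 barcodes were removed), and Scrublet was run per library. Cells of both libraries were clustered with scanpy 1.11.5 (2000 variable genes without the 10 genes or mitochondrially encoded ones, 30 components, 15 neighbours, Leiden resolution 1), and distal clusters once more with 20 components. Clusters were named from 16 marker lists. A cluster took a joint name when a second list scored at least 3.5 (log2 against cells outside the distal nephron), a limit set after the scores and the levels of the 10 genes had been seen.

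UMIs were summed per class and library; levels, ratios, thinning and shares (Clopper-Pearson intervals) are as given above. The ratio and thinning steps were tested on simulated data. With 1 library per group no test was run. The members, the gene lists and the marker lists were chosen with earlier results of these data known. Named genes were all 10 members, up to 3 per list and class by size of the log2 ratio, and the 3 genes most like each member by Pearson correlation of log2(level + 10). Alternatives to filters, totals, thinning, cell weights, clustering and proximal tubule RNA are given in the closing section. Some genes of the lists are not reported here by name.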

Additional observations from a re-analysis of the deposited data

Results flagged for a closer look

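Slc12a3 and Wnk1 had ratios of CA3 over vehicle on opposite sides of 1 in 2 distal classes, each with a counting interval off 1, and these differences between classes were not tested, since each group is 1 library. Slc12a3 was at 1.13 in DCT/CNT-like cells against 0.740 in DCT-like, 0.0196 in TAL-like and 0.0489 in CNT/PC-like cells. Wnk1 was at 1.27 in CNT/PC-like cells against 0.784 in TAL-like and 0.785 in DCT/CNT-like cells. Without the 3 highest cells of each library, Slc12a3 in DCT-like cells moved to 1.12. The value of 1.27 became 0.686 as a mean over cells.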

How the results depend on the processing

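Ratios of single genes and classes were recomputed under 13 alternatives, 340 values in all. Of these, 272 stayed within the counting interval of the reported value and 64 moved beyond it. The other 4, of pairs past the limit of 1.5-fold, came out on the other side of 1, 2 of them only as bounds at 3 UMIs. Sgk1 in CNT/PC-like cells, reported at 1.54, was 0.796 after thinning to 1000 UMIs, and at resolution 2 it was 0.987 in CNT/PC-like and 1.91 in PC-like cells. Slc12a3, reported far below 1, was at most 1.16 in TAL-like and 1.17 in CNT/PC-like cells once each library lost its 3 highest cells. The CA3 library then had 0 UMIs and the vehicle library 4. Both values are therefore upper bounds at 3 UMIs, and neither shows a ratio above 1. Over the 4 classes 1 of 31 pairs of gene and class was at least 1.5-fold higher and 5 were lower. The number higher was 2 with up to 50% mitochondrial UMIs, 2 without the 50 highest genes in the total, 2 with the 10 genes allowed among the variable genes, 3 of 15 measured after thinning and 0 at resolution 2, a count without the PC-like cells, where Scnn1a (1.61) and Sgk1 (1.91) were past the limit. The number lower was 1 after thinning and 2 without the 3 highest cells; other alternatives gave 4 to 7. Of 20 pairs of gene and library, the distal class with the highest level was the same in 15 with up to 50% mitochondrial UMIs in 19 as a mean over cells, in 16 with at least 500 genes or at resolution 2, and in 19 in each of the other 3 alternatives run for it; in the first, Slc12a3 and Wnk4 were highest in DCT-like cells in both libraries. With at least 500 genes Slc12a3 was highest there in both libraries and Wnk4 in the vehicle library, as at resolution 2. The count of classes at resolution 2 also left out PC-like cells. In the CA3 library these were above CNT/PC-like cells for Scnn1a (456 against 423 CPM), Nr3c2 (72.67 against 67.65), Hsd11b2 (4446 against 4397) and Sgk1 (476 against 435). Those intervals overlapped, and in the vehicle library PC-like cells were lower for each of these genes. Resolution 0.5 and the setting with the 10 genes allowed gave no DCT-like class. Added after the data were seen were DCT-like and DCT/CNT-like cells joined, the DCT/CNT-like class without its cluster of high mitochondrial share, the same clusters with cells of up to 50% mitochondrial UMIs, likeness over classes of at least 10 cells, and the order of classes with at least 500 genes, at both other resolutions and with the 10 genes allowed. No paired analysis was possible because each group is 1 library. Classes of 12 to 63 cells and levels below 20 UMIs limit what a ratio can show, and libraries were not replicated.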
